A study of Mus musculus with 4 samples.

Results

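The major histocompatibility complex (MHC) of the mouse was described here as the CpGs of its class II and class III region, on mm9 chromosome 17, 70 windows of 20 kb that run from the flank of the class I gene H2-K1 to that of H2-D1. The first covered CpG lay at position 34053082 and the last at 35443357. The members were chosen by position alone, without reference to any measured level. Of 1480609 CpGs covered in at least 1 library of the study, 3315 lay in the region. They were covered in 4 libraries of reduced representation bisulfite sequencing (RRBS), which reads the methylation of CpGs near the cut sites of the restriction enzymes MspI (CCGG) and TaqI (TCGA).

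The libraries crossed 2 cell types with 2 genotypes. Haematopoietic stem and progenitor cells (HSPCs) were sorted from bone marrow as Sca1+Lin-, and mature B cells from peripheral blood as B220+. The background of all mice was CBAxC57BL/6J. Sca1-BCL6Δ mice carried a loxP-flanked Bcl6-IRES-eGFP transgene in a pLy6 (Sca1 promoter) vector together with mb1-Cre (Cd79a tm1(cre)Reth), a Cre knocked into the Cd79a gene, so that the transgene is deleted once Cd79a is switched on in the B lineage. Whether wild-type mice carried the Cre allele is not stated in the labels. Per the submitters' methods text 2 independent transgenic lines were made, and which of them gave the DNA was not stated there, nor were ages. Each library was made from the DNA of 6 to 9 mice and each condition had 1 library, so every test below compares the reads of 2 libraries and carries no spread between animals. Methylation tables hold no transcript levels, so the sorted cell types were not checked against expressed markers.

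Class II molecules are dimers on the surface of B cells, macrophages and dendritic cells that present peptides of ingested proteins to helper T cells. The chaperones H2-DM and H2-O edit which peptides they carry. Class III, between the class II genes and H2-D1, is among the densest gene stretches of mammalian genomes and holds no classical presenting molecule. Its genes include complement components, the cytokines Tnf, Lta and Ltb, heat shock genes and many housekeeping genes. CBA and C57BL/6 mice carry different MHC haplotypes (H2k and H2b), which differ in sequence along this region. A CpG or a cut site present in one haplotype alone is read from that haplotype alone.

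No mm9 genome or annotation was used here. Promoter sequences of 300 bases, from 250 before to 50 after a start site, were taken from RefSeq (build GRCm38.p6) and placed on mm9 by matching the spacing of their CpGs to the covered CpGs. In this way 55 promoters of 41 genes were placed between Pfdn6 and H2-D1. Below, 7 of the RefSeq sequences are shown 5′ to 3′ on the strand of the gene, because the results turn on them or on the CpGs beside them. In the 6 placed ones the capitals mark CpGs that were covered in at least 1 library. In that of H2-Aa, which could not be placed, they mark every CpG.
Ring1, mm9 chr17:34161576-34161875, minus strand: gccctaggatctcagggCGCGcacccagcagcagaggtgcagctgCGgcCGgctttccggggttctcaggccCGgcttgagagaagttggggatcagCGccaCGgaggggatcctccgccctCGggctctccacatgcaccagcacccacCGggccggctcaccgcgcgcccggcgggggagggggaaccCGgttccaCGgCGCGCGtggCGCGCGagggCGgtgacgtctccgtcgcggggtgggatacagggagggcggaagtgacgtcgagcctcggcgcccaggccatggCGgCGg
H2-DMa, mm9 chr17:34259527-34259826, plus strand: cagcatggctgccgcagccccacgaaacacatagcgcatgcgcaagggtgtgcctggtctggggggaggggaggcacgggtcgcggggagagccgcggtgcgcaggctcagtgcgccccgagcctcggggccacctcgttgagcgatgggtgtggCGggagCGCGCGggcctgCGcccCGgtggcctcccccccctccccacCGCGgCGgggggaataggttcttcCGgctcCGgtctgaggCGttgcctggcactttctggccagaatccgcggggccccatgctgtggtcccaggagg
H2-Aa, chromosome 17, minus strand, no mm9 position: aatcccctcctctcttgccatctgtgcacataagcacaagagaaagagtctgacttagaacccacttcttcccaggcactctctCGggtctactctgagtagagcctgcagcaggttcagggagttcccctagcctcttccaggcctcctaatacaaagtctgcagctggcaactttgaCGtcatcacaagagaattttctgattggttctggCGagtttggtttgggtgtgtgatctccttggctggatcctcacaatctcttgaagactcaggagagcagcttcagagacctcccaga
Ppt2, the start site farthest upstream, mm9 chr17:34765175-34765474, minus strand: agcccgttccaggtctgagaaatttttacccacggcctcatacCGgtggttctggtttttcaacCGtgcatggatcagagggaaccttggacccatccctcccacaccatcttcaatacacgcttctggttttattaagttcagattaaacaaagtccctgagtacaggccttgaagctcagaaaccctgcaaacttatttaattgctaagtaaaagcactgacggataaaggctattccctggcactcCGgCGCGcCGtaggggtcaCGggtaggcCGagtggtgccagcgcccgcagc
Atf6b, mm9 chr17:34783841-34784140, plus strand: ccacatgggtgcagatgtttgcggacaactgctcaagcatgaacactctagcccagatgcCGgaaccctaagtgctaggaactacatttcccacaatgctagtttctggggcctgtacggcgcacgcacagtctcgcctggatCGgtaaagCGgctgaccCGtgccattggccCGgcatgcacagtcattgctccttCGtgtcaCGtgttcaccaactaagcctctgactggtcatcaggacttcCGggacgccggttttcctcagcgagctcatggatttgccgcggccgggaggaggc
Apom, mm9 chr17:35268697-35268996, minus strand: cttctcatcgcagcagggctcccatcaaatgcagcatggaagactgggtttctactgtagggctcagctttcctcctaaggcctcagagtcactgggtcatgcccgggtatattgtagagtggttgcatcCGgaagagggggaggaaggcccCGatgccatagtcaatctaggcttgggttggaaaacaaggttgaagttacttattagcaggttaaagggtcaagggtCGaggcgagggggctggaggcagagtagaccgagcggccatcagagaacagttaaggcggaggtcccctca
Lta, mm9 chr17:35342247-35342546, minus strand: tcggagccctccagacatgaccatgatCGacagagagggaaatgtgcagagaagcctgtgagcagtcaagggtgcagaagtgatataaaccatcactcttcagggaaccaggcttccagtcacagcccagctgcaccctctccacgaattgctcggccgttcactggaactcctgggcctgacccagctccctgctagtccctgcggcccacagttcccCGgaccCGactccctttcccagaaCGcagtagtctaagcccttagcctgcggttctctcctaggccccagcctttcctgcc

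The sequences differed widely in how much RRBS could read. Ring1 held 37 CpGs, 7 CCGG sites and 1 TCGA site, whereas H2-Aa, which encodes the alpha chain of the class II molecule I-A, held 3 CpGs and neither site. For each of the 8 class II genes with a RefSeq promoter sequence, that with the most CpGs was taken, and 7 had at most 3 CpGs. H2-DMa was the exception with 29. That sequence overlaps the promoter of the divergently transcribed gene Brd2, and H2-DMa had 2 sequences, of which the other was not placed. CCGG or TCGA was found in 3 of these 8 sequences, against 60.5% of all 32851 promoters of the table (CCGG in 52.8%, TCGA in 22.0%, both motifs their own reverse complement). Placed promoters came mostly from class III and the extended class II part, and 1 class II presenting gene was among them.

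Depth in the region was 23197 CpG reads for wild-type HSPCs, 14806 for Sca1-BCL6Δ HSPCs, 38937 for wild-type B cells and 18470 for Sca1-BCL6Δ B cells. The covered CpGs numbered 2926, 2488, 3210 and 2690, at mean coverages of 7.93, 5.95, 12.1 and 6.87 reads, in that order. At least 5 reads in every library were present at 1027 CpGs, and levels compared across the 4 libraries rest on these. One library stood apart across the genome. At 66829 CpGs at or above 98% in the combined B cells, the mean level of the wild-type HSPC library was lower than that of the Sca1-BCL6Δ HSPC library by 12.9% of the latter, which is called the loss rate here. In the region, 221 CpGs at 90% or more in the combined B cells had a mean level of 85.4% for wild-type HSPCs and 93.4% for Sca1-BCL6Δ HSPCs, against 80.9% and 94.2% at such CpGs of all autosomes. Tests against wild-type HSPCs were repeated with methylated reads of the other library turned unmethylated at this rate, in 1 seeded draw. The rate was read from the same libraries at CpGs high in B cells, and a difference of the library and one of the cells cannot be told apart.

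The mean level of the region differed little between libraries. The mean over the 1027 CpGs was 32.7% for wild-type HSPCs, 34.0% for Sca1-BCL6Δ HSPCs, 34.2% for wild-type B cells and 33.4% for Sca1-BCL6Δ B cells. Over 342324 autosomal CpGs the means were 36.6%, 40.6%, 41.3% and 41%. The region's mean differed between B cells and HSPCs by 1.54 percentage points in wild-type mice (SE 0.92 over 62 windows) and by -0.56 (SE 0.69) in Sca1-BCL6Δ mice. Between Sca1-BCL6Δ and wild-type libraries it differed by 1.35 (SE 0.84) in HSPCs and by -0.75 (SE 0.42) in B cells. Each of these differences was less than 2 SE. Both differences that use the wild-type HSPC library turned negative with the loss rate applied, to -2.93 between the wild-type cell types and -3.06 between genotypes in HSPCs, and also with a minimum of 10 reads (-1.03 and -1.36).

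The spread of levels differed more than the mean. CpGs between 20% and 80% made up 31.4% of the 1027 for wild-type HSPCs, 21.4% for Sca1-BCL6Δ HSPCs, 16.6% for wild-type B cells and 18.2% for Sca1-BCL6Δ B cells. CpGs above 80% made up 16.8%, 23.5%, 25.3% and 24.1%, so the wild-type HSPC library had the fewest of these and the most between. Among single reads with at least 3 CpGs the wild-type HSPC library again had the most mixed ones. Reads with some but not all CpGs methylated made up 18.0% of 3246 for wild-type HSPCs, 11.4% of 2274 for Sca1-BCL6Δ HSPCs, 15.0% of 5494 for wild-type B cells and 11.5% of 2756 for Sca1-BCL6Δ B cells. Over all autosomes these shares were 18.4%, 12.7%, 16.5% and 13.3%. In the region and over the autosomes, both wild-type libraries lay above both Sca1-BCL6Δ libraries in this share.

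Along the region, stretches of high and low methylation alternated. Of 70 windows of 20 kb, 51 had at least 3 CpGs with 5 reads in every library. In 8 windows the pooled level was under 20% in every library, and 6 of these held at least 1 placed promoter. The window at chr17:34150001-34170000, with the promoters of Ring1, H2-Ke6, Rxrb and Slc39a7 and the most CpGs of any window (194), stood at 15.1% for wild-type HSPCs, 16.7% for Sca1-BCL6Δ HSPCs, 16.0% for wild-type B cells and 14.0% for Sca1-BCL6Δ B cells. In 12 windows the level was over 60% in every library, and 2 of these held a placed promoter. At chr17:35230001-35250000 it was 89.2%, 95.1%, 98.7% and 93.2% in the same order, with no placed promoter inside. The other 31 windows lay between.

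**Figure D1:**
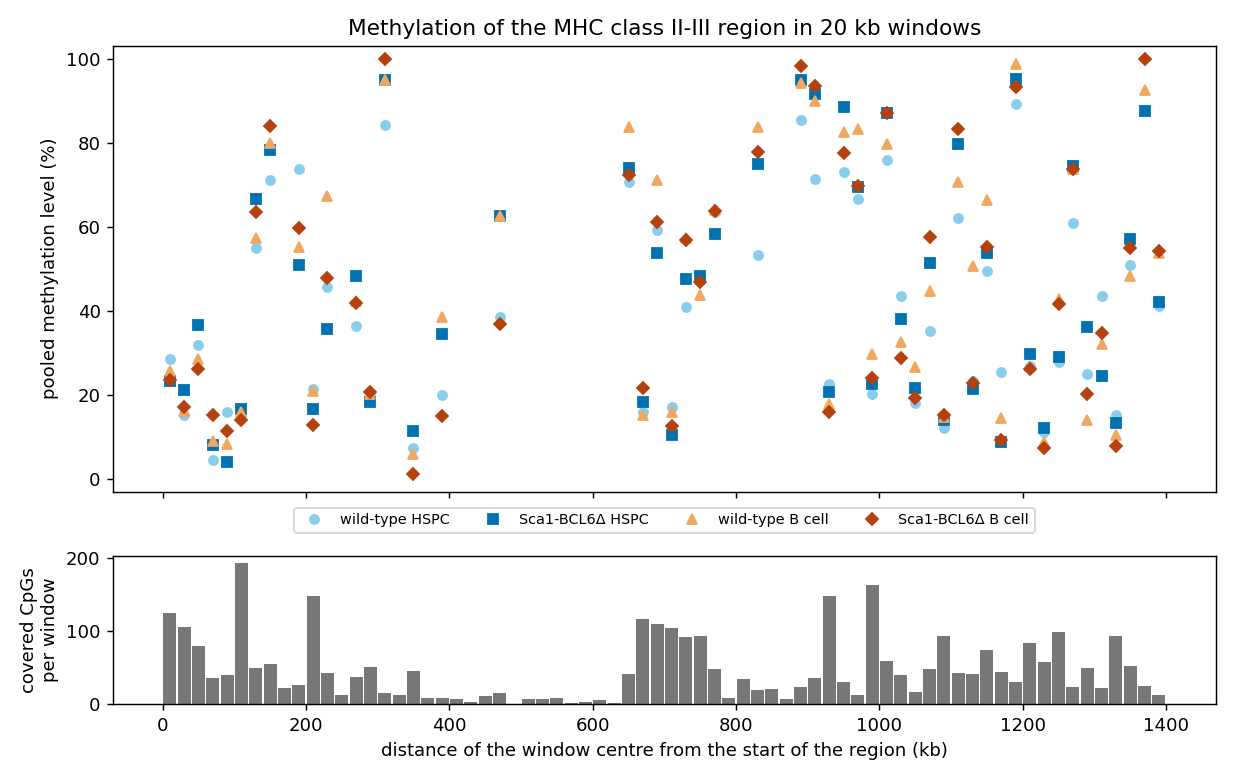
Pooled methylation level in percent (upper panel, 1 symbol per library) and number of covered CpGs (lower panel, bars) in 20 kb windows, against the distance in kb from the start of the region. Symbols of the 4 libraries lie close together at most windows, and the bars are lowest between the placed promoters of H2-DMa and Gpsm3, where 14 windows in a row hold at most 16 CpGs each.

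Coverage was sparse between H2-DMa and Gpsm3. The 14 windows of chr17:34410001-34690000, which lie between these placed promoters, held 90 CpGs in 280 kb (32.1 per 100 kb), against 3225 in the other 1120 kb (287.9 per 100 kb). One of these windows held no CpG and 14 CpGs of the stretch had 5 reads in every library. No promoter of H2-Ab1, H2-Aa, H2-Eb1 or H2-Eb2, which encode the chains of the presenting molecules, was placed, so no level is given for them.

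Promoters of 33 of 79 listed genes were placed, and 17 had at least 20 CpG reads in every library. Of these 17, 12 were under 20% in every library and 3 under 10%. The median promoter level was 14.8% for wild-type HSPCs, 6.91% for Sca1-BCL6Δ HSPCs, 7.92% for wild-type B cells and 7.14% for Sca1-BCL6Δ B cells. In wild-type mice 12 of the 17 were lower in B cells than in HSPCs and 5 higher. In Sca1-BCL6Δ mice 9 were lower and 8 higher. Between genotypes 8 were higher and 9 lower in Sca1-BCL6Δ HSPCs, with a median difference of -0.08 percentage points, and 7 were higher and 10 lower in Sca1-BCL6Δ B cells (median -1.19). These are counts of pooled levels with no test, and promoters that face each other across 1 start region share CpGs (Pfdn6 with Wdr46, and H2-DMa with Brd2). No promoter of the list held a called CpG.

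**Figure D2:**
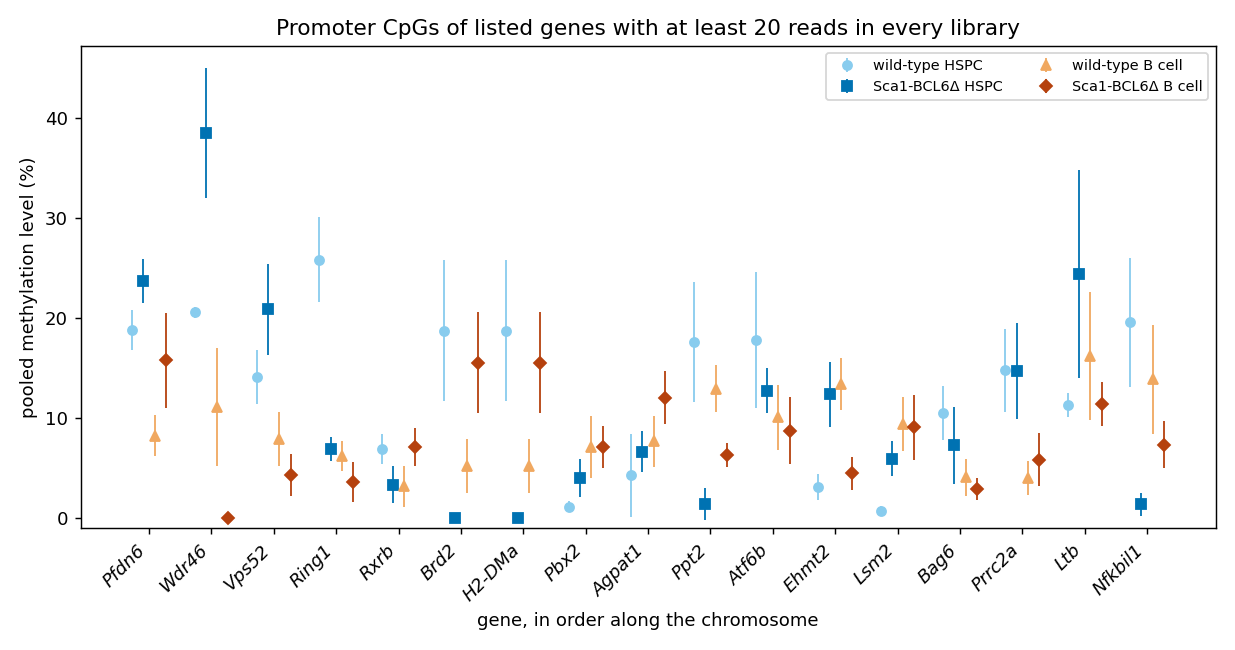
Pooled methylation level in percent of the CpGs of 17 placed promoters (x axis, in chromosome order), 1 symbol per library, with SE over CpGs as bars. Most symbols lie under 20%, and Wdr46 in Sca1-BCL6Δ HSPCs (38.5%) is the highest.

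Among the genes of chromatin and transcription, promoter levels were mostly low. Ring1 encodes a RING-finger subunit of Polycomb repressive complex 1. In the next sentences, read counts at a site are of reads with at least 2 CpGs there. The Ring1 promoter stood at 25.9% for wild-type HSPCs (SE 4.23 over 17 CpGs), 6.91% for Sca1-BCL6Δ HSPCs (SE 1.18), 6.21% for wild-type B cells (SE 1.5) and 3.65% for Sca1-BCL6Δ B cells (SE 2.03). The wild-type HSPC value was the high one of the 4, and 9 of its 36 reads were methylated at every CpG they held, against 2 of 39, 4 of 70 and 2 of 36 in the others. Rxrb, a nuclear receptor that pairs with other receptors, was at 6.93%, 3.37%, 3.23% and 7.11% in the order wild-type HSPC, Sca1-BCL6Δ HSPC, wild-type B and Sca1-BCL6Δ B. Pbx2, a homeodomain protein that binds DNA together with Hox proteins, was at 1.18%, 4.03%, 7.12% and 7.14%. Ehmt2 encodes the histone H3 lysine methyltransferase G9a, and its better covered promoter was at 3.14%, 12.4%, 13.4% and 4.49%. Atf6b, a membrane-bound transcription factor of the endoplasmic reticulum stress response, was at 17.8%, 12.7%, 10.1% and 8.77%.

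In the extended class II part next to H2-K1, 3 promoters stood between 14.1% and 38.5% in the HSPC libraries. Pfdn6, a subunit of the prefoldin chaperone, was at 18.8% for wild-type HSPCs, 23.7% for Sca1-BCL6Δ HSPCs, 8.25% for wild-type B cells and 15.8% for Sca1-BCL6Δ B cells. Wdr46, a protein of ribosomal RNA processing transcribed away from it, was at 20.6% (34 CpG reads), 38.5% (26), 11.1% (63) and 0% (0 of 55, which allows up to 5.45%). Vps52, a subunit of a tethering complex of the trans-Golgi network, was at 14.1%, 20.9%, 7.92% and 4.33%. For these genes both HSPC libraries were above both B cell libraries, from pooled levels with no test of their own. Pfdn6 and Wdr46 share CpGs, so they do not count separately. Among the other promoters named here, Ring1, Atf6b, Bag6 and Prrc2a had the same order. Pbx2, Lsm2, Agpat1 and Apom had the reverse order. Promoters outside the region were not counted in this way, so neither order is set against a background share. H2-K1, which encodes a class I heavy chain, had CpGs with 5 reads in both wild-type libraries, at 0% in HSPCs (0 of 15 CpG reads, which allows up to 20%) and 11.1% in B cells (54 CpG reads).

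The class II gene with a usable promoter was H2-DMa, whose product is a chain of the peptide-editing chaperone. Of its 2 promoter sequences, only that beside Brd2 was placed. Its CpGs, shared with the start of Brd2, a bromodomain reader of acetylated histones, stood at 18.8% for wild-type HSPCs (SE 7.02 over 6 CpGs), 0% for Sca1-BCL6Δ HSPCs (0 of 32 CpG reads, which allows up to 9.38%), 5.26% for wild-type B cells (SE 2.68) and 15.6% for Sca1-BCL6Δ B cells (SE 5). High and low libraries did not sort by cell type or by genotype. None of the 5 listed genes of peptide supply and none of the 4 of complement was placed.

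In class III, low and high promoters stood side by side. Lsm2, a subunit of a complex that binds U6 RNA, was at 0.73% for wild-type HSPCs, 5.98% for Sca1-BCL6Δ HSPCs, 9.39% for wild-type B cells and 9.09% for Sca1-BCL6Δ B cells. Agpat1, an enzyme of phosphatidic acid synthesis, was at 4.30%, 6.67%, 7.69% and 12.1%. Bag6, a chaperone cofactor, was at 10.6%, 7.32%, 4.13% and 2.94%. Prrc2a, a proline-rich RNA-binding protein, was at 14.8%, 14.7%, 4.03% and 5.88%, so both HSPC libraries were above both B cell libraries. Nfkbil1, related to inhibitors of NF-kappa-B, was at 19.6%, 1.39%, 13.9% and 7.38%. Apom encodes an apolipoprotein made mainly by liver and kidney, and its promoter was methylated. Its 2 or 3 CpGs with 5 reads stood at 81.8% for wild-type HSPCs (22 CpG reads), 95.2% for Sca1-BCL6Δ HSPCs (21), 100% for wild-type B cells (36 reads over 3 CpGs) and 100% for Sca1-BCL6Δ B cells (16). Slc44a4, a choline transporter family member of epithelia, was at 82.1% in wild-type B cells (28 CpG reads), with under 10 reads in each of the others. Vwa7, named for its von Willebrand factor A domain, was at 15.6% in wild-type HSPCs (32 CpG reads) and 31.2% in wild-type B cells (93). It was at 60.0% and 40.0% in the Sca1-BCL6Δ HSPC and B cell libraries, with 10 and 15 CpG reads. The heat shock gene Hspa1l was at 16.4% for wild-type B cells and 0% for Sca1-BCL6Δ B cells (0 of 39 CpG reads, which allows up to 7.69%). Among class I genes, H2-D1 was covered with 5 reads in B cells alone, at 8.90% in wild-type (191 CpG reads) and 0% in Sca1-BCL6Δ (0 of 47, which allows up to 6.38%).

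Ppt2, a lysosomal thioesterase, had several start sites, and the one farthest upstream gave the widest spread. Its 6 CpGs with 5 reads stood at 50.5% for wild-type HSPCs (SE 4.12, 91 CpG reads), 0% for Sca1-BCL6Δ HSPCs (0 of 30, which allows up to 10%) and 5.15% for wild-type B cells (SE 2.36, 97 CpG reads). The Sca1-BCL6Δ B cell library had no CpG with 5 reads there. Of 18 wild-type HSPC reads over this site 7 were fully methylated and 7 partly, whereas 5 of 5 Sca1-BCL6Δ HSPC reads were unmethylated, and 16 of 21 wild-type B cell reads. A promoter further downstream stood at 17.6%, 1.45%, 13.0% and 6.31% in the order wild-type HSPC, Sca1-BCL6Δ HSPC, wild-type B and Sca1-BCL6Δ B. The 20 kb window that holds both (chr17:34750001-34770000) was at 24.5% for wild-type HSPCs and 10.2% for Sca1-BCL6Δ HSPCs over 12 CpGs, the most negative difference of any window in that comparison, and did not pass the test (-14.3 percentage points, SE 4.98; Cochran-Mantel-Haenszel chi-square, adjusted p = 0.109).

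Windows were tested by the Cochran-Mantel-Haenszel (CMH) chi-square with CpGs as strata. A window counted as called when its p, adjusted over the genome, was below 0.05 and its mean difference reached 10 percentage points. Between wild-type B cells and HSPCs, 14 of 60 windows were called and all 14 were higher in B cells. Across the genome 28.6% of windows were called in this comparison, 28.2% higher and 0.385% lower, so the region's share was not above the background. The median difference over the 60 windows was 6.77 percentage points, against 11.1 over all windows of the genome. With that loss rate applied to the B cell reads, 1 window was called (0.726% across the genome), and it was lower in B cells. That window, chr17:34230001-34250000, stood at 80.2% in HSPCs and 59.0% in B cells after this step (-21.3 percentage points, CMH chi-square, adjusted p = 0.0409). As measured, its B cell level was 73.1% and it was not called (-7.14 percentage points, CMH chi-square, adjusted p = 0.237).

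The largest called difference was at chr17:34210001-34230000, between the placed promoters of Rxrb and Brd2, where no class II promoter was placed. Its 7 tested CpGs averaged 45.1% in HSPCs and 78.9% in B cells (33.8 percentage points, SE 10.6 over CpGs, CMH chi-square, adjusted p = 7.71e-05). Next came chr17:34870001-34890000, from 63.8% to 88%, and the last 20 kb of the region, from 55.6% to 76.4%. At chr17:34810001-34830000, with 18 tested CpGs, the rise was from 57.5% to 77.9% (CMH chi-square, adjusted p = 8.39e-04). Other called windows ranged in difference from 10.1 to 19.5 percentage points. The 14 windows lay among the methylated stretches, with B cell levels from 58.2% to 99.1%.

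Of the same 14 windows, 9 could be tested in Sca1-BCL6Δ mice, and 7 were higher and 2 lower in B cells, with a median of 5.30 percentage points and a range from -2.97 to 9.19. Between genotypes, 9 of 10 testable windows were higher and 1 lower in Sca1-BCL6Δ HSPCs (median 9.69). In B cells 5 of the 14 were higher and 9 lower in Sca1-BCL6Δ mice (median -0.8). The windows were picked on the wild-type libraries, which the genotype comparisons share, so these counts are not independent of the call. Between B cells and HSPCs of Sca1-BCL6Δ mice no window of the region was called, of 45 tested. Across the genome 0.0823% of windows were called in that comparison, and 2 of the 45 had an unadjusted p under 0.05. The most positive differences in Sca1-BCL6Δ mice were at chr17:34230001-34250000 (60.6% in HSPCs and 73.1% in B cells), chr17:35070001-35090000 (36.2% and 45.4%) and chr17:35390001-35410000 (63.3% and 72.5%). The most negative were at chr17:34990001-35010000 (81.9% and 70.6%), chr17:35330001-35350000, which holds Ltb and Lta (33.9% and 24.7%), and chr17:34390001-34410000 (25.7% and 16.7%). In wild-type mice the most negative were at chr17:35090001-35110000 (45.4% and 33.5%), chr17:34570001-34590000 (38.8% and 30.5%) and chr17:34650001-34670000 (79.2% and 71.4%), none of them called. The B cell minus HSPC difference was compared between genotypes at 44 windows, and 0 were called, against 0.0571% across the genome, with 0 at an unadjusted p under 0.05 (8.52% of all windows).

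**Figure D3:**
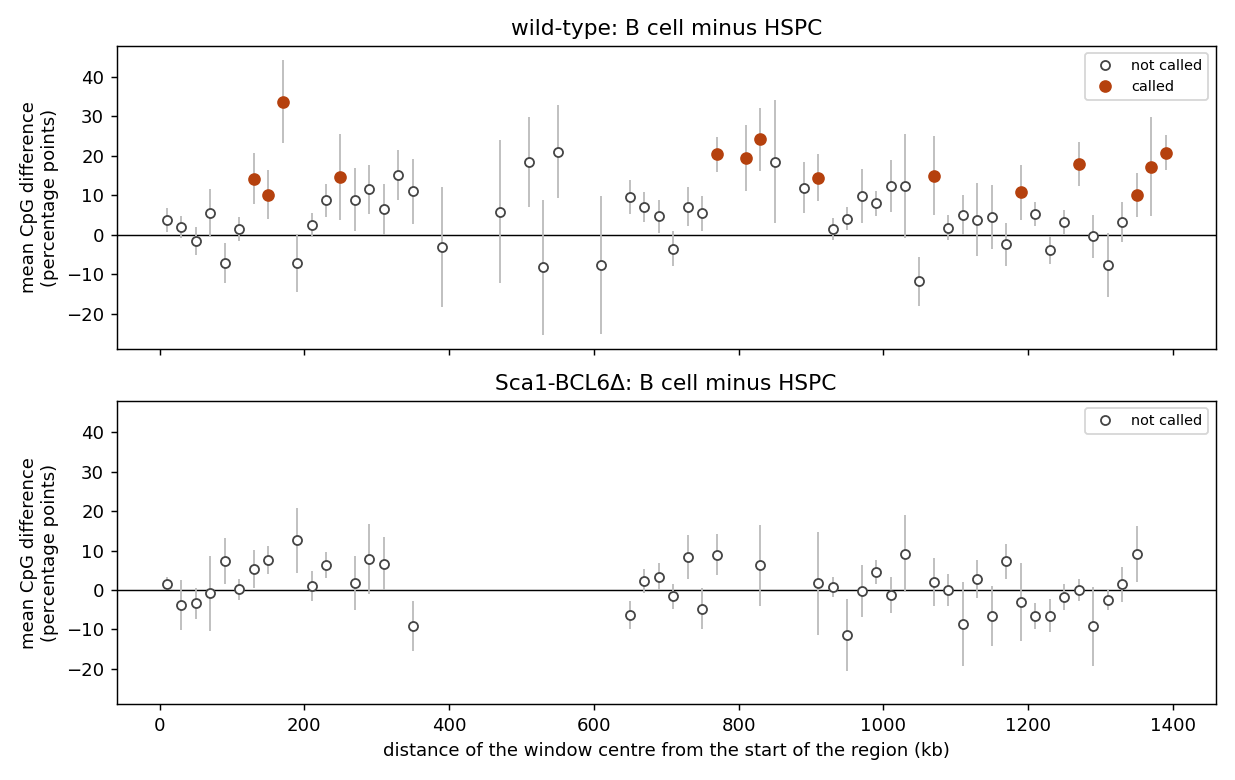
Difference in mean CpG level, B cell minus HSPC, in percentage points, for each tested 20 kb window against its distance in kb from the start of the region, in wild-type (upper) and Sca1-BCL6Δ (lower) mice. Bars are SE over CpGs, and filled points are called. All 14 filled points lie above 0 in the upper panel, and the lower panel has none.

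Tiles of 1 kb resolved these windows further. In the wild-type comparison 8 of 192 tiles were called, 7 higher and 1 lower in B cells, against 3.83% of tiles across the genome (3.58% higher and 0.248% lower). The highest rise, at chr17:34222001-34223000, was from 39.8% to 100% over 3 CpGs (CMH chi-square, adjusted p = 0.0017) and lay in the window with the largest difference. The tile that was lower lay at chr17:35342001-35343000, beside Lta. In Sca1-BCL6Δ mice 0 of 97 tiles were called (0.0376% across the genome) and 3 had an unadjusted p under 0.05 (3.09%, against 2.54% of all tiles).

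At single CpGs, 4 of 882 were called between wild-type B cells and HSPCs by Fisher's exact test, against 0.734% across the genome (0.682% higher and 0.0512% lower). The 3 higher CpGs were methylated in all reads of wild-type B cells. At chr17 position 34320048, between H2-DMa and Gpsm3, 3 of 10 reads were methylated in wild-type HSPCs and 16 of 16 in wild-type B cells. At position 35033452, 1967 bp upstream of the Ehmt2 start, these counts were 7 of 14 and 23 of 23. At position 35416121, 16082 bp downstream of the H2-D1 start, they were 7 of 17 and 15 of 15. With the loss rate applied, none of these 3 was called. In Sca1-BCL6Δ mice 0 of 338 CpGs were called (0.0183% across the genome), with 3 at an unadjusted p under 0.05 (0.888%, against 1.74% of all CpGs).

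The fourth CpG, which was lower in B cells, lay 267 bp upstream of the placed Lta start. Lta encodes lymphotoxin alpha, a cytokine of the tumour necrosis factor family made by B and T lymphocytes, which joins with the product of Ltb on the cell surface and is needed for lymph node formation. At this CpG (chr17 position 35342563), 13 of 21 reads were methylated for wild-type HSPCs (61.9%, 95% exact binomial interval 38.4 to 81.9) and 11 of 13 for Sca1-BCL6Δ HSPCs (84.6%, 54.6 to 98.1). In wild-type B cells 2 of 31 were (6.5%, 0.8 to 21.4) and for Sca1-BCL6Δ B cells 0 of 8 (0%, which allows up to 37.5%). Both HSPC libraries were above both B cell libraries, and the direction was opposite to that of the 14 called windows. The wild-type difference was -55.5 percentage points (Fisher's exact test, adjusted p = 0.0115). The Sca1-BCL6Δ pair had too few reads for the main test. At a minimum of 5 reads it differed by -84.6 percentage points and was not called (Fisher's exact test, adjusted p = 0.559 over all CpGs tested so).

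The neighbouring CpG, 290 bp upstream, is read by the same reads. It was methylated in 11 of 21 reads of wild-type HSPCs, 12 of 13 of Sca1-BCL6Δ HSPCs, 6 of 31 of wild-type B cells and 1 of 8 of Sca1-BCL6Δ B cells. Both CpGs were methylated together in 8 of 21 wild-type HSPC reads and 11 of 13 Sca1-BCL6Δ HSPC reads, and neither in 25 of 31 and 7 of 8 B cell reads of wild-type and Sca1-BCL6Δ mice. A CpG 447 bp upstream was methylated in 7 of 15 reads for wild-type HSPCs, 10 of 38 for wild-type B cells and 0 of 7 for Sca1-BCL6Δ B cells, with no read for Sca1-BCL6Δ HSPCs. Within the printed Lta promoter the CpGs had at most 7 reads in any library. The promoter was placed in the second step of the placement, on 4 CpGs. The tile that holds these CpGs fell from 49.5% to 15.7% between wild-type HSPCs and B cells (CMH chi-square, adjusted p = 0.0102). Ltb, whose product anchors lymphotoxin alpha in the membrane, had promoter levels of 11.3% for wild-type HSPCs, 24.4% for Sca1-BCL6Δ HSPCs, 16.2% for wild-type B cells and 11.4% for Sca1-BCL6Δ B cells, so cell types overlapped there.

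**Figure D4:**
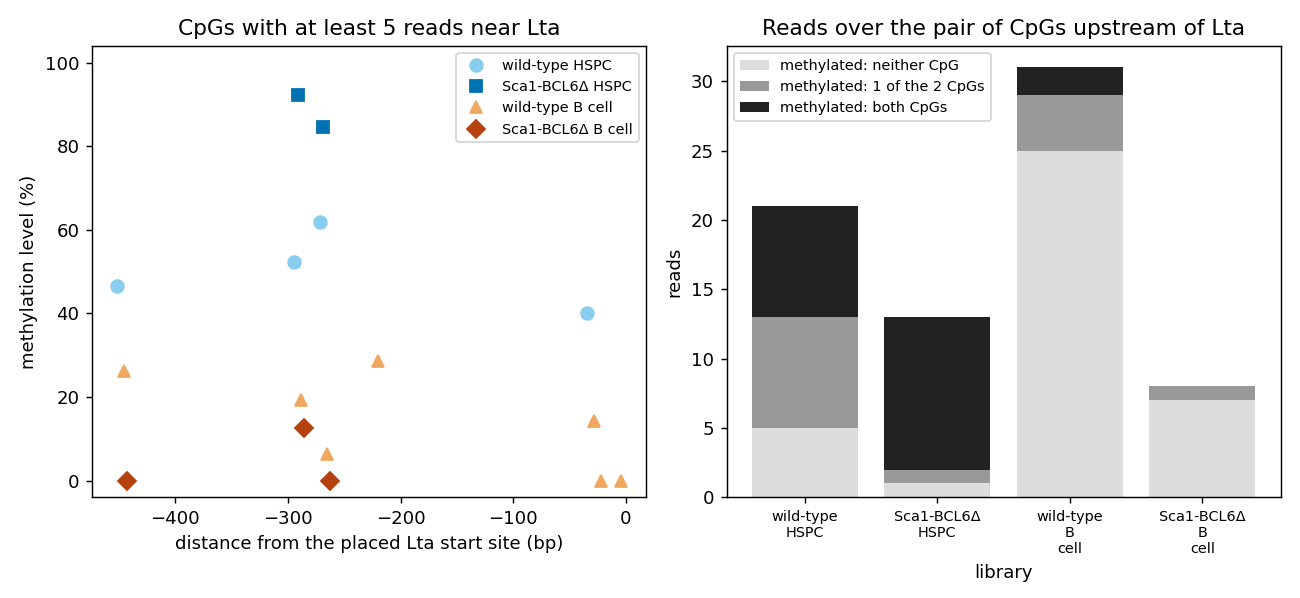
Left: methylation level in percent of CpGs with at least 5 reads against the distance in bp from the placed Lta start, 1 symbol per library, offset by a few bp to keep them apart. Right: number of reads per library with neither, 1 or both of the CpGs 267 and 290 bp upstream methylated. Both CpGs are methylated in 11 of 13 Sca1-BCL6Δ HSPC reads, and neither in 25 of 31 wild-type B cell reads.

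To find places where cell type separated all 4 libraries, 133 tiles of 1 kb with at least 20 CpG reads in each library were compared. In 4 tiles both B cell libraries were at least 10 percentage points above both HSPC libraries (2.88% of tiles across the autosomes), and in 1 both were below (1.08%). No test was run for this rule, which was chosen after the data were seen. Pooled levels weight a CpG by its reads, so a tile can also separate libraries when they cover its CpGs unequally. With the mean over CpGs in place of the pooled level, 5 tiles had both B cell libraries above and 1 had both below (2.93% and 1.22% across the autosomes). Of these, 3 were among the 4 tiles above and 0 was the tile below. Binomial intervals below count CpGs of 1 read as separate and are too narrow for that reason.

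The widest gap was between the placed promoters of Fkbpl and Atf6b, at chr17:34782001-34783000. Of its CpG reads, 68.3% were methylated for wild-type HSPCs (41 of 60, 95% exact interval 55.0 to 79.7) and 60.5% for Sca1-BCL6Δ HSPCs (26 of 43, 44.4 to 75). In wild-type B cells 96.6% were (84 of 87, 90.3 to 99.3) and for Sca1-BCL6Δ B cells 97.9% (47 of 48, lower bound 88.9). The next tile, which reaches into the Atf6b promoter, was at 49.2%, 37.1%, 60.2% and 66.2% in the same order. Over both tiles reads were counted where they held at least 2 CpGs. Reads with all CpGs methylated made up 14 of 32 for wild-type HSPCs and 5 of 17 for Sca1-BCL6Δ HSPCs in the second tile, against 35 of 51 and 17 of 19 in the B cell libraries. The CMH test over thinned CpGs called neither tile in either genotype. Nearer the Atf6b start, at position 34783901, methylated reads were 4 of 8 and 1 of 4 in the wild-type and Sca1-BCL6Δ HSPC libraries. In the B cell libraries they were 0 of 15 and 1 of 14, so B cells were not above HSPCs there. Both tiles kept the margin with the mean over CpGs.

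The other tiles with B cells above were at chr17:34199001-34200000 (73.3%, 83.3%, 98.2% and 96.0% in the order wild-type HSPC, Sca1-BCL6Δ HSPC, wild-type B and Sca1-BCL6Δ B) and at chr17:34822001-34823000 (10.8%, 0%, 22.0% and 21.0%). The 0% there was 0 of 52 CpG reads, which allows up to 5.77%. The second of these lost the margin with the mean over CpGs. The tile with B cells below, at chr17:35069001-35070000, between Neu1 and 1110038B12Rik, was at 54.5%, 66.7%, 40.3% and 37.5%. Its means over CpGs were 60.3%, 70%, 56.9% and 58.3%, which is not a gap of 10 percentage points.

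Between genotypes, no window, CpG or tile was called. In HSPCs 0 of 48 windows were called (1.18% across the genome), with 8 at an unadjusted p under 0.05 (16.7%, against 16.3% of all windows). In B cells 0 of 56 were called (0.00596%), with 1 at an unadjusted p under 0.05 (1.79%, against 3.30% of all windows). At single CpGs 0 of 366 were called in HSPCs (0.0370%), with 16 at an unadjusted p under 0.05 (4.37%, against 4.44% of all CpGs). In B cells 0 of 566 CpGs were called (0.0172%), with 9 at such a p (1.59%, against 1.68%). Of 1 kb tiles 0 of 99 were called in HSPCs (0.00898%) and 0 of 142 in B cells (0%).

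The most positive differences in HSPCs were at chr17:35150001-35170000, with Vwa7 (63.7% in wild-type and 87.2% in Sca1-BCL6Δ, SE of the difference 14.5), at chr17:34370001-34390000 (78.7% and 100% over 3 CpGs) and at chr17:34210001-34230000 (52.2% and 73.3%). Beside the Ppt2 window, the most negative were at chr17:35090001-35110000 (45.4% and 31.9%) and chr17:35350001-35370000 (48.9% and 35.9%). In B cells the most negative were at chr17:34850001-34870000 (98.1% and 75% over 4 CpGs, SE of the difference 8.73), chr17:35410001-35430000 (83.2% and 66.1%) and chr17:34510001-34530000 (83.3% and 71.4%). The most positive were at chr17:34290001-34310000 (49.8% and 66.9%), chr17:34570001-34590000 (56.4% and 66.6%) and chr17:34350001-34370000 (90.7% and 100%). None of these passed the test.

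In 3 of the 133 tiles both Sca1-BCL6Δ libraries lay at least 10 percentage points below both wild-type libraries in pooled level (0.827% of tiles across the autosomes), and in 0 both lay above (1.05%). With the mean over CpGs 2 tiles had both below, and 1 of the 3 was among them. That one, chr17:34816001-34817000, was at 79.2% for wild-type HSPCs and 96.6% for wild-type B cells, and at 65.6% and 56.5% for the Sca1-BCL6Δ HSPCs and B cells. All 5 of its CpGs were lower in the Sca1-BCL6Δ library of each cell type. They lie from position 34816886 to 34816931 and share reads, so they are not 5 separate observations. The tile was picked on these same CpGs, so their common direction follows in part from the choice. The wild-type B cell library had 3 to 7 reads at each.

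In the other 2 the pooled gap came with unequal coverage of the CpGs. The tile at chr17:35032001-35033000, upstream of Ehmt2, was at 68.1% and 67.7% in the wild-type HSPC and B cell libraries and at 50% and 30.8% in those of Sca1-BCL6Δ mice. Its means over CpGs were 56% and 59.1% against 50% and 50%. There 2 CpGs were methylated in all but a few reads of every library, and at the pair of CpGs with low levels the Sca1-BCL6Δ B cell library had 9 reads each against 4 each at the methylated pair. At the tile chr17:35351001-35352000, between Lta and Nfkbil1, pooled levels were 76.5% and 70.6% against 40.6% and 53.2%, and means over CpGs 69.1% and 68% against 56% and 60%. Among pairs that mix cell type and genotype, 1 tile was separated in pooled level (1.18% with Sca1-BCL6Δ HSPC and wild-type B above, 0.544% with both below across the autosomes). It lay at chr17:34446001-34447000 with 0% (0 of 23 CpG reads), 30.4%, 40.4% and 12.5%.

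Coverage was compared between genotypes because strain haplotypes that segregate between the pools could change which fragments are read. Of each library's autosomal CpG reads, scaled to 1000000, the region took 2576 for wild-type HSPCs, 2719 for Sca1-BCL6Δ HSPCs, 2568 for wild-type B cells and 2620 for Sca1-BCL6Δ B cells. Over 67 windows with at least 50 reads, the median log2 ratio of Sca1-BCL6Δ over wild-type coverage was -0.05 in HSPCs and 0.00 in B cells, against -0.19 and -0.11 over autosomal windows with reads in every library. In 23 of the 67 windows the ratio had opposite signs in the HSPC and B cell libraries, against 27309 of 76044 autosomal windows. No window was at least 2-fold higher in Sca1-BCL6Δ libraries of both cell types (0.724% across the autosomes). In 1 window coverage was at least 2-fold lower in both, which is 1.49% of the region's windows against 5.85% across the autosomes.

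That window, chr17:34590001-34610000, lay in the CpG-poor stretch between H2-DMa and Gpsm3. It had 72 reads for wild-type HSPCs, 13 for Sca1-BCL6Δ HSPCs, 99 for wild-type B cells and 21 for Sca1-BCL6Δ B cells over 8 CpGs (log2 ratios -1.74 and -1.13). Just outside the threshold were chr17:34850001-34870000, with 170, 45, 346 and 85 reads (log2 ratios -1.19 and -0.92), and chr17:34890001-34910000, with 78, 26, 151 and 32 reads (log2 ratios -0.86 and -1.13). The next was chr17:34510001-34530000 (log2 ratios -0.63 and -0.63). With the number of covered CpGs in place of reads, 0 windows passed (1.29% across the autosomes). The Sca1-BCL6Δ libraries were the shallower ones in both cell types, and the part of haplotypes in these ratios was not tested.

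**Figure D5:**
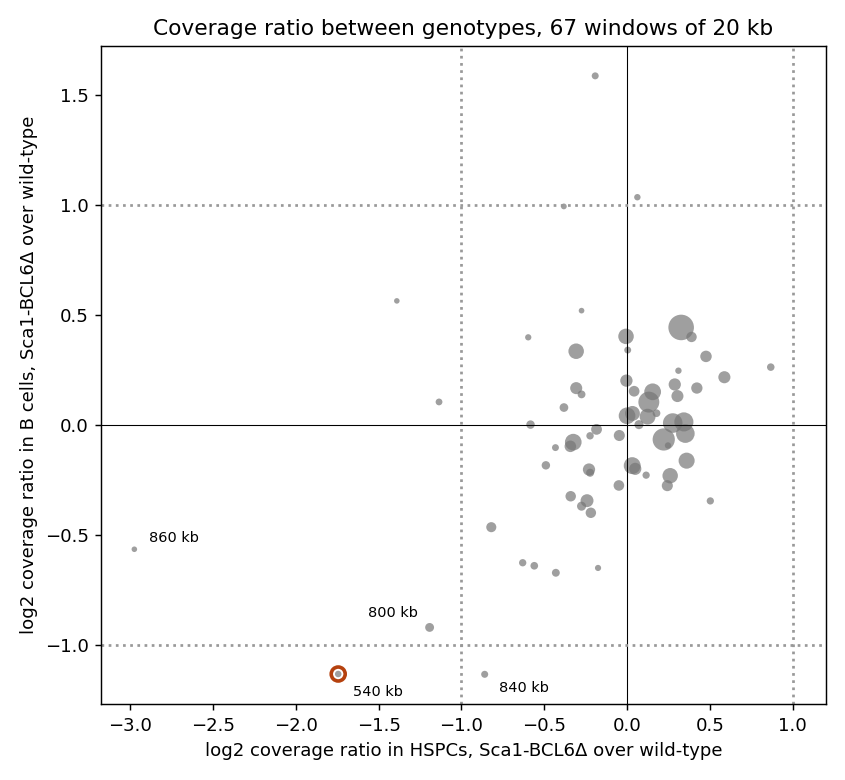
Log2 ratio of Sca1-BCL6Δ over wild-type coverage in B cells against that in HSPCs, 1 point per 20 kb window, with area rising with the reads in the 4 libraries together. Dotted lines mark 2-fold, labels give the distance of a window's first base from the start of the region, and the ring marks the window past 2-fold lower in both cell types (540 kb). Most points, and the large ones, lie within 2-fold of 0 on both axes.

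At single CpGs, 25 of the 3315 had at least 5 reads in both wild-type libraries and none in either Sca1-BCL6Δ library, which is 0.754% against 0.730% of autosomal CpGs. The reverse, CpGs read in Sca1-BCL6Δ libraries alone, was found at 0 of 3315 (0.0180% of autosomal CpGs). Pairs of a cell type alone also gave 0 (0.000139% of autosomal CpGs for HSPCs and 0.0213% for B cells), as did both mixed pairs (0.00139% and 0.00423%). The 25 CpGs formed 20 groups spread from end to end of the region. Upstream of Ehmt2, 4 CpGs within 15 bp, from 35031569 to 35031583, had 11 to 13 reads in wild-type HSPCs and 10 or 11 in wild-type B cells. The tile upstream of Ehmt2 described above begins within 1 kb of them. A position polymorphic between strains could also appear as a CpG missing from reads that span it. Of 319 CpGs inside at least 5 reads of each library, 2 were missing from at least 20% of those reads in all 4 libraries (0.627%, against 0.520% of autosomal CpGs). At position 35263268 the CpG was present in 5 of 13 reads of wild-type HSPCs, 7 of 11 of Sca1-BCL6Δ HSPCs, 14 of 20 of wild-type B cells and 7 of 10 of Sca1-BCL6Δ B cells. At position 35379101 these counts were 3 of 8, 3 of 5, 3 of 5 and 6 of 16. The rule asked for absence in every library, so it could not find CpGs missing in 1 genotype alone.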

How the data were processed

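Per the labels, DNA was digested with MspI and TaqI, size-selected (40 to 350 bp), bisulfite-converted, amplified for 18 PCR cycles and sequenced. Per the submitters' methods text, reads were aligned to 36-bp fragment ends (mm9) without gaps; no removal of PCR duplicates was recorded. The deposited CpG tables gave methylated and total read counts per CpG and the score column holding mean methylation. The deposited read tables held, per read, its CpG count and the methylated percent of these. Counts were tested here with Python 3.11.15 (scipy 1.17.1): Fisher's exact test per CpG (at least 10 reads in both libraries, 20 percentage points) and a Cochran-Mantel-Haenszel (CMH) chi-square test per 20 kb window (at least 3 CpGs with 5 reads, thinned to over 50 bp apart, 10 points) or 1 kb tile (2 CpGs, 20 points). Benjamini-Hochberg adjustment ran over the whole genome. Tests were checked on simulated data. Windows and CpGs named were all called ones and the largest differences. Promoters named were those over 20% in a library with 20 reads or with the most reads of their role. Some further promoters under 20%, of chromatin and transcription and of class III, were named outside this rule. Coverage was CpG reads scaled to 1000000 autosomal CpG reads. Promoters were placed by at least 5 matched CpGs and gene order, or by 3 where distances to placed promoters equalled those in RefSeq. The members, gene lists and tests were chosen with earlier results of these data known; the second placement step, the 1 kb tiles and their rules were added after seeing the data. Intervals and limits for 0 counts (3 reads) cover counting error only.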

Additional observations from a re-analysis of the deposited data

How the results depend on the processing

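No paired analysis was possible because each condition had 1 library. The loss rate bore most on B cells against HSPCs in wild-type mice (wild-type development): windows called went from 14 to 1, called CpGs from 4 to 1, and the region's mean difference from 1.54 to -2.93 percentage points. Across the genome 0.726% of windows and 0.0405% of CpGs were called with this rate applied. For HSPC genotype the loss rate moved the region's mean difference from 1.35 to -3.06. With 10 reads in every library the means were -1.36 for HSPC genotype and -1.03 for wild-type development. Windows called in wild-type development numbered 7 of 46 with 10 reads (18.2% across the genome) and 4 of 60 at 20 percentage points (17.9%). As windows of 50 kb they numbered 6 of 27 (41.1%). Called CpGs numbered 1 with 5 reads (0.205% across the genome), 1 with 20 reads (3.46%) and 2 without the CpGs of highest coverage (0.635%). Called 1 kb tiles numbered 3 with 10 reads (2.77%), from 8. Without thinning, 2 of 54 windows were called for HSPC genotype (10.3% across the genome) and 1 of 58 for B cell genotype (0.57%). With windows shifted by 10 kb, 1 of 47 was called for HSPC genotype (1.18%). Coverage windows past the fold in both cell types numbered 4 at 1.5-fold, 0 at 3-fold and 0 by covered CpGs. CpGs covered in wild-type alone numbered 69 with 3 reads (2.08%, against 2.21% of autosomal CpGs) and 5 with 10 (0.151%, against 0.0572%). All but 1 of these 5 belong to the group upstream of Ehmt2, from 35031569 to 35031583, so they are not separate observations. The other lay at position 34231652, with 15 reads in wild-type HSPCs and 16 in wild-type B cells. In Sca1-BCL6Δ alone 1 CpG was covered with 3 reads (0.0302%, against 0.0537%). Apart from the loss rate and the changes of threshold or window, the cause was not tested. For tiles separated by pairs of libraries, the mean over CpGs replaced pooled reads. It gave 1 tile in place of 0 with Sca1-BCL6Δ HSPC and wild-type B below (0.652% across the autosomes). It also changed which tiles passed under the other rules, as given above. In all, 65 of 88 alternatives kept counts within 1.5 times and means within their error, but 34 of the 65 were counts of 0 that stayed 0, which show no stability. Depth limits single CpGs most: 505 CpGs of the region had 10 reads in the Sca1-BCL6Δ HSPC library and 1796 in the wild-type B cell library, so a difference not called in the shallower libraries was not shown to be absent.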
